A study of Mus musculus with 12 samples.

Results

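The 6 genes C6, Elovl3, Moxd1, Cspg5, Cyp2u1 and Hao2 were followed in RNA-seq libraries of mouse liver. They were picked by symbol, as liver genes known to follow the male or the female pattern of growth hormone that do not belong to large families of near-identical copies, and they are 6 of the 55291 genes in the count table. All 6 had enough reads to be tested. These genes and the gene lists below were chosen with earlier results of these data known, so shares set beside all genes are descriptive.

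The mice were male C57BL/6, an inbred laboratory strain, 6 weeks old when they entered the study, and the labels name no transgene or deletion in any group. HFD+RE mice ate a high-fat diet and trained under the exercise called RE, and HFD+AE mice ate the same diet and trained under the exercise called AE. HFD mice ate the high-fat diet without training, and NC mice ate a normal diet. All groups had 1 week of adaptive feeding, and 13 mice are listed for NC against 8 for each high-fat group. Exercise began after 8 weeks of high-fat feeding and lasted at least 12 weeks. AE and RE appear in the labels as abbreviations alone, and in exercise studies usually mean aerobic (AE) and resistance (RE) training. Each group had 3 libraries, numbered 3, 4 and 5 in HFD+RE, 1, 2 and 3 in HFD+AE, 1, 2 and 3 in HFD, and 2, 4 and 5 in NC. The sources used here do not say whether each library is a different mouse. The p-values therefore describe the spread between these libraries and no more, and part of that spread may be technical.

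The pituitary releases growth hormone in sharp pulses in male mice and almost continuously in females. In liver the pulses switch the transcription factor STAT5b on and off, and the repressor BCL6, the female-enriched factor CUX2 and the factor HNF6 act at many of the same genes. Male-biased liver genes depend on the pulses, and female-biased genes rise when they are lost. C6 (a terminal complement protein), Elovl3 (an elongase of very long fatty acids), Moxd1 (a copper monooxygenase related to dopamine beta-hydroxylase) and Cspg5 (a chondroitin sulfate proteoglycan best known from brain) were taken as male-biased. Hao2, a peroxisomal hydroxyacid oxidase, was taken as female-biased. For Cyp2u1, a P450 that hydroxylates fatty acids, no direction was assumed.

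RefSeq promoters (GRCm38.p6, 250 bases before to 50 after the gene's start) were at hand for C6, Moxd1 and Hao2, and they are shown because STAT5, CUX and HNF6 factors read short DNA words in such stretches. Capitals mark matches to TTCNNNGAA (STAT5), ATCGAT (CUX) and ATTGAT (HNF6), searched on both strands. The promoters are chr10:24223267-24223566 on the plus strand for Moxd1, chr15:4726960-4727259 on the plus strand for C6 and chr3:98893181-98893480 on the minus strand for Hao2.
Moxd1: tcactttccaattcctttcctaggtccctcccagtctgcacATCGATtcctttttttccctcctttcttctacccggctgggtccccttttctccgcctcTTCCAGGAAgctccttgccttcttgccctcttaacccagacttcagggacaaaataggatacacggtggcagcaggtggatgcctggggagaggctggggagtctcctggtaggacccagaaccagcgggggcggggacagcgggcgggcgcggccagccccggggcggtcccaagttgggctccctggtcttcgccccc
C6: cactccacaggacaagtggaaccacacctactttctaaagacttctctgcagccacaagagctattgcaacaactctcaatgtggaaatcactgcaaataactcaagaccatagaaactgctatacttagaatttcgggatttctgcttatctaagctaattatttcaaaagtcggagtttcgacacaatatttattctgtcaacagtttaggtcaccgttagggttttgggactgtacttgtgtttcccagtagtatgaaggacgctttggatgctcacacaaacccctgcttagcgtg
Hao2: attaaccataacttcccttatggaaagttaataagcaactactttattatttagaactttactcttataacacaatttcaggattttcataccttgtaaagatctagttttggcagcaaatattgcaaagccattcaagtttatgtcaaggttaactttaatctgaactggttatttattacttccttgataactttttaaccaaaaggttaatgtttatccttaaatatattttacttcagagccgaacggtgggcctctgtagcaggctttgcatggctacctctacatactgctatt
Moxd1 held TTCCAGGAA, whose first base lies at -150 from the start, and ATCGAT at -209, while C6 and Hao2 held none of the 3 words in this window. Of 32851 mouse promoters of the same length, 8.30% held the STAT5 word, 0.925% the CUX word and 7.54% the HNF6 word. A match is a run of letters and not a shown binding site.

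Total counts ran from 44373214 to 77665729 per library. The rank correlation of gene length with log2 CPM, centred on each gene's mean, differed between libraries. It was 0.22, -0.29 and -0.31 in HFD+RE and 0.29, 0.29 and -0.03 in HFD+AE. In HFD it was -0.26, -0.15 and -0.29 and in NC 0.20, 0.21 and 0.08, so HFD and NC differed in its sign. The first principal component held 40.6% of the variance in log2 CPM. On it the libraries lay at -36.6, 50.4 and 52.6 in HFD+RE and at -40.4, -36.9 and 14.0 in HFD+AE. They lay at 67.4, 23.0 and 80.8 in HFD, and at -61.1, -72.7 and -40.2 in NC. HFD+RE 3 and HFD+AE 3 each stood apart, on the other side of 0 from the other libraries of their group. HFD 2 also lay well below the other HFD libraries, on the same side of 0. The share of mitochondrial ribosomal RNA ran from 0.685% to 1.71% in HFD+RE, 0.771% to 0.867% in HFD+AE, 1.76% to 3.26% in HFD and 0.708% to 0.924% in NC. Summed hepatocyte markers (7 genes, among them Alb and Cps1) ran from 88465 to 116914 CPM in HFD+RE, 109218 to 114460 CPM in HFD+AE, 58877 to 86179 CPM in HFD and 116691 to 128881 CPM in NC, where CPM is the count scaled to the depth of the library after TMM scaling. Alb made up most of the hepatocyte sum in every library. Adipocyte and kidney markers summed to 0 to 12 counts per library. All 3 high-fat groups were compared with the same NC libraries, and both exercise groups with the same HFD libraries, so these comparisons are not independent.

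The high-fat diet went with low levels of all 4 male-biased genes and a high level of Hao2 in HFD livers. Against NC, C6, Elovl3, Moxd1 and Cspg5 fell, Hao2 rose and Cyp2u1 did not pass the threshold (adjusted p below 0.05). Over all 18305 genes tested, 15.6% passed that threshold in HFD vs NC, 8.38% higher and 7.19% lower. The HFD and NC libraries did not overlap for 5 of the 6 genes, 1 higher and 4 lower, beside 46.0% of all genes (23.9% higher and 22.1% lower). For Moxd1 this rested on 309, 10 and 2 counts in NC against 0 in each HFD library, and its call held in 6 of 18 alternative settings. The median log2 change was -2.73 over the 6 genes, whether Moxd1 stood at its fitted value or at its bound, and 0.01 over all genes. The 6 genes mix 4 taken as male-biased with Hao2 and Cyp2u1. Medians over them therefore depend on the make-up of the set, here and in the comparisons below.

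Exercised livers were also set against NC. In HFD+AE, C6, Elovl3 and Cspg5 fell and Hao2 rose, beside 1.38% of all genes called (0.901% higher and 0.481% lower). In HFD+RE, the same 3 genes fell and Cyp2u1 rose, beside 3.96% of all genes called (2.67% higher and 1.28% lower). The HFD+AE and NC libraries did not overlap for 4 of the 6 genes, 1 higher and 3 lower, beside 21.8% of all genes (12.1% and 9.74%). The HFD+RE and NC libraries did not overlap for 5 of the 6, 2 higher and 3 lower, beside 26.1% (13.7% and 12.4%). The median log2 change of the 6 genes was -2.08 in HFD+AE and -2.06 in HFD+RE, beside -0.01 and 0.02 over all genes.

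Against HFD, edgeR called 0 of the 6 genes in either exercise group. In HFD+RE vs HFD, 3 of the 6 had an unadjusted p under 0.05 and DESeq2 called 2 (C6 and Hao2). The libraries did not overlap for 3 of the 6 (C6 and Cyp2u1 higher in HFD+RE, Hao2 lower), beside 14.1% of all genes (7.15% higher and 6.99% lower). Over all genes, edgeR called 0.0109%, 0.00546% in each direction. Of the 18305 genes tested, 1605 had an unadjusted p under 0.05, and DESeq2 called 186 genes. In HFD+AE vs HFD, 1 of the 6 (C6) had an unadjusted p under 0.05 and did not overlap, and DESeq2 called 0. Over all genes, 32.0% did not overlap (15.8% higher and 16.3% lower) and edgeR called 0.0492% (0.0164% and 0.0328%). In the same comparison 4826 of the 18305 genes tested had an unadjusted p under 0.05, and DESeq2 called 2105 genes. In HFD+RE vs HFD+AE, edgeR and DESeq2 called 0 of the 6, 3 had an unadjusted p under 0.05, and 3 did not overlap (Cspg5 and Cyp2u1 higher in HFD+RE, Elovl3 lower), beside 11.3% of all genes (5.88% higher and 5.4% lower). Over all genes edgeR called 0 (0%) in that comparison, against 1468 at an unadjusted p under 0.05 and 24 by DESeq2. The medians of the 6 genes were 0.67 in HFD+RE vs HFD, 0.09 in HFD+AE vs HFD and 0.58 in HFD+RE vs HFD+AE, against 0.04, 0.00 and 0.01 over all genes.

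**Figure D1:**
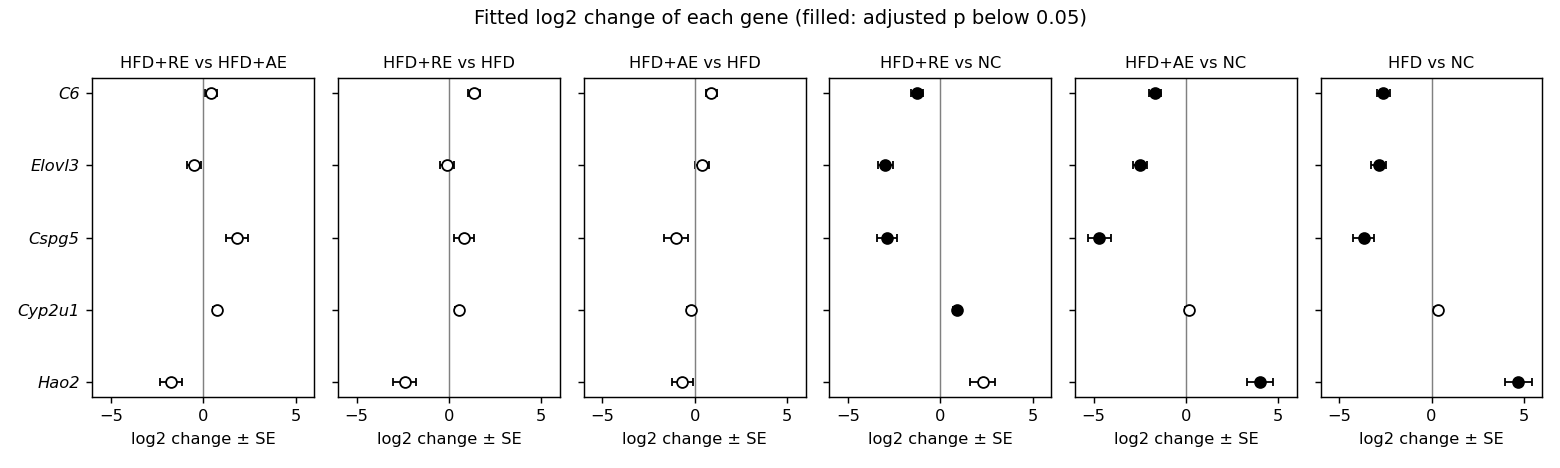
Fitted log2 change (horizontal axes) with 1 SE (bars) of 5 genes in the 6 comparisons, from edgeR over 12 libraries, with filled points for an adjusted p below 0.05. Moxd1 is left out because its fitted change against a group at 0 has no fixed size. C6, Elovl3 and Cspg5 lie left of 0 in all 3 comparisons with NC, and no point is filled in the 3 comparisons among high-fat groups.

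**Figure D2:**
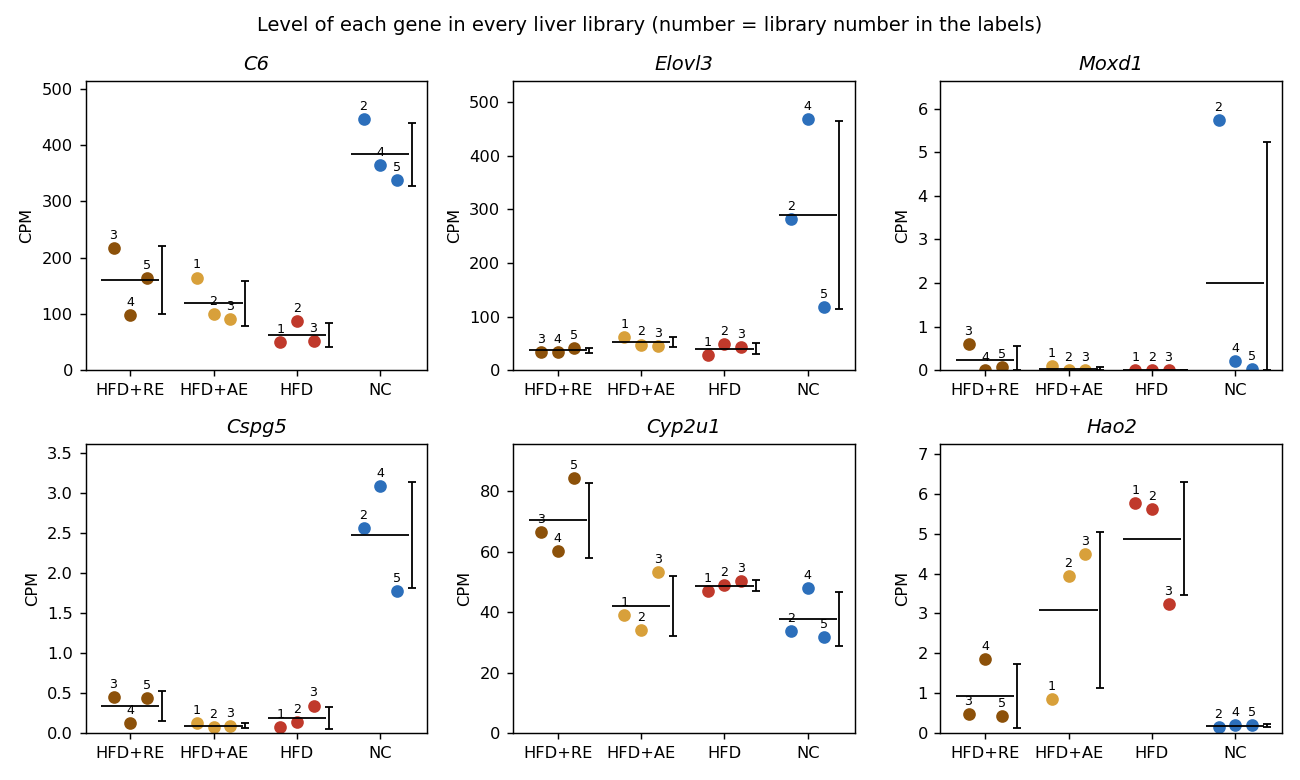
Level of each gene in CPM (vertical axes, linear, from 0) in the 12 liver libraries, 1 point per library with its label number, horizontal lines at the group means and bars of 1 SD (cut at 0). C6, Elovl3 and Cspg5 stood highest in the 3 NC libraries, Hao2 lowest in them, Cyp2u1 highest in the 3 HFD+RE libraries, and most Moxd1 reads came from NC 2.

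C6 is one of the proteins that assemble on a target membrane into the complement attack complex. It measured 217, 97.3 and 164 CPM in HFD+RE, 165, 100.3 and 91.3 CPM in HFD+AE, 50.1, 88.0 and 51.1 CPM in HFD, and 447, 364 and 339 CPM in NC. Every high-fat library lay below every NC library, and every exercised library lay above every HFD library, by as little as the step between HFD+AE 3 and HFD 2. The group means were 159.6 ± 60.2 CPM in HFD+RE, 119 ± 40.0 CPM in HFD+AE, 63.1 ± 21.6 CPM in HFD and 383 ± 56.5 CPM in NC (SD, n = 3 each), or 41.6%, 31.0% and 16.5% of the NC mean in HFD+RE, HFD+AE and HFD. C6 fell against NC in all 3, with a log2 change of -1.26 (SE 0.32, adjusted p = 0.047) in HFD+RE, -1.69 (SE 0.33, adjusted p = 0.027) in HFD+AE and -2.60 (SE 0.34, adjusted p = 0.0016) in HFD. The C6 call in HFD+RE vs NC was narrow and held in 9 of 19 alternative settings. It was lost (adjusted p = 0.061 to 0.18) without any 1 of HFD+RE 4, HFD+RE 5, HFD+AE 2, HFD 1, HFD 3, NC 2, NC 4 or NC 5. The call in HFD+AE vs NC was lost without HFD+AE 2 (adjusted p = 0.12), HFD+AE 3 (0.092), NC 2 (0.077) or NC 4 (0.089).

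Against HFD, the log2 difference of C6 was 1.34 (SE 0.33, unadjusted p = 0.0012, adjusted p = 0.28) in HFD+RE and 0.91 (SE 0.32, unadjusted p = 0.014, adjusted p = 0.11) in HFD+AE, so neither passed in edgeR's quasi-likelihood test. DESeq2 gave 1.32 (adjusted p = 0.017) in HFD+RE, and edgeR without HFD 2 gave 1.23 (adjusted p = 0.046) in HFD+AE. Summed hepatocyte markers also stood lower in HFD, at 83.5%, 90.2% and 57.9% of the NC mean in HFD+RE, HFD+AE and HFD. Of the 7 genes in the sum, 4 fell in HFD against NC, beside 7.19% of all genes lower, and 3 did not pass. Among the latter, Ttr was higher in every HFD library (5962 to 7751 CPM) than in any NC library (4107 to 5642 CPM). Divided by that sum, C6 stood at 49.8%, 34.0% and 27.9% of the NC mean in the same groups, so its distance between HFD+AE and HFD shrank. In whole liver, fewer cells of a type and less RNA per cell cannot be told apart.

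The 6 other terminal complement genes gave a partly shared picture. C8b, C7 and C9 fell in HFD against NC, with log2 changes of -2.22 (SE 0.41, adjusted p = 0.0081), -1.83 (SE 0.47, adjusted p = 0.026) and -1.12 (SE 0.35, adjusted p = 0.047). C8a (-1.35), Hc (-1.07) and C8g (0.47) did not pass, and the median of the 6 was -1.23. Over all genes 7.19% fell in HFD against NC, and the median was 0.01. C7 was a rare transcript, at 0.382 ± 0.162 CPM in HFD and 1.35 ± 0.630 CPM in NC, while C9 averaged 302 ± 119 CPM in HFD and 655 ± 179 CPM in NC. None of the 6 was called in HFD+AE or HFD+RE against NC or against HFD, and C9 averaged 329 ± 139 CPM in HFD+RE and 303 ± 85.0 CPM in HFD+AE, close to its HFD mean.

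Elovl3 lengthens saturated and monounsaturated fatty acids, and its liver transcript is known to cycle over the day. It measured 34.3, 34.9 and 41.3 CPM in HFD+RE, 62.6, 48.0 and 45.9 CPM in HFD+AE, 28.2, 48.3 and 42.9 CPM in HFD, and 281, 469 and 118 CPM in NC. The lowest NC library still lay above the highest high-fat library, and the 3 NC libraries spread widely. Means were 36.8 ± 3.92, 52.1 ± 9.11, 39.8 ± 10.4 and 289 ± 175 CPM in HFD+RE, HFD+AE, HFD and NC (SD, n = 3 each). Elovl3 fell against NC in all 3 high-fat groups, with a log2 change of -2.97 (SE 0.40, adjusted p = 0.0037) in HFD+RE, -2.47 (SE 0.39, adjusted p = 0.011) in HFD+AE and -2.86 (SE 0.39, adjusted p = 0.0022) in HFD. The call in HFD+AE held in 15 of 19 alternatives, with adjusted p up to 0.20, and HFD+AE 2 was the only single library whose removal ended it (adjusted p = 0.063). The 3 high-fat groups stood at 12.7% (HFD+RE), 18.0% (HFD+AE) and 13.7% (HFD) of the NC mean.

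Between exercised and HFD livers Elovl3 did not pass. The log2 difference was -0.11 (SE 0.37, adjusted p = 0.95) in HFD+RE vs HFD and 0.39 (SE 0.37, adjusted p = 0.52) in HFD+AE vs HFD, and turned to 0.05 in HFD+RE vs HFD without HFD 2. Thus C6 and Elovl3 fell by similar amounts in HFD, while their exercised levels differed as a share of NC. HFD+RE livers held 41.6% of the NC mean of C6 and 12.7% of that of Elovl3. That contrast between the genes was not tested.

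Exons of Elovl3 overlap Pitx3 on the other strand, and the strand setting of the counting is not given in the sources used here. Pitx3 had 11, 10 and 28 counts in HFD+RE, 50, 36 and 28 in HFD+AE, 23, 20 and 67 in HFD, and 241, 436 and 82 in NC, in the same order as Elovl3 within NC. Reads of the overlapping pair cannot be told apart without strand, and Elovl3 carried 45663 counts in the 3 NC libraries against 759 for Pitx3. Clock genes also varied within NC. Nr1d1, a repressor of the clock, had 96.7, 80.9 and 37.3 CPM and Arntl, a core activator of the clock, had 10.8, 18.5 and 1.96 CPM in NC 2, 4 and 5. NC 5 was lowest of the NC libraries for Elovl3, Nr1d1 and Arntl. Over the 16 clock genes listed, NC 5 was the lowest NC library for 5 and the highest for 9, among them Per3 (34.6 CPM, against 11.9 in NC 2 and 9.09 in NC 4) and Dbp (35.3 CPM, against 20.1 and 8.29). The time of day of tissue collection is not given in the sources used here, and its part in the Elovl3 difference was not tested.

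**Figure D3:**
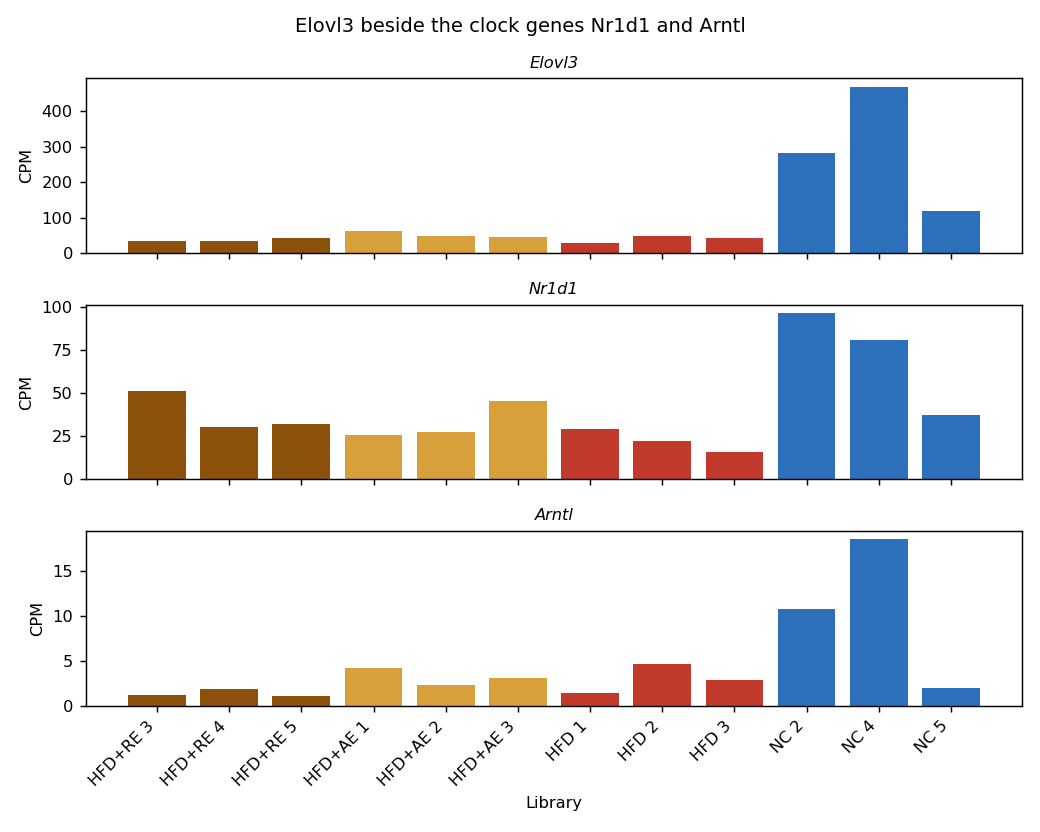
CPM (vertical axes, linear, from 0) of Elovl3 and of the clock genes Nr1d1 and Arntl in each of the 12 libraries, 1 bar per library and 1 color per group. NC 5 had the lowest value of the 3 NC libraries for the 3 genes drawn, although 9 of 16 clock genes were highest there, and Elovl3 in NC 5 (118 CPM) was still above the highest high-fat library (62.6 CPM).

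Of 16 clock genes, 1 rose (Per3, 1.28, SE 0.38, adjusted p = 0.041) and 4 fell in HFD against NC, among them Npas2 (-3.52, SE 0.76, adjusted p = 0.014), Nr1d1 (-1.66, SE 0.36, adjusted p = 0.014) and Clock (-1.19, SE 0.32, adjusted p = 0.028). Over all genes 8.38% were called higher and 7.19% lower in that comparison. The median log2 change of the 16 was -0.05. Arntl did not pass (-1.80, adjusted p = 0.061). In HFD+RE against NC, 2 rose and 3 fell, beside 2.67% of all genes higher and 1.28% lower. In HFD+AE against NC, 1 rose and 1 fell, beside 0.901% higher and 0.481% lower.

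Among the other fatty acid elongases, 5 of 6 could be tested and 1 fell in HFD against NC, beside 7.19% of all genes. The 1 that fell was Elovl2, which acts on polyunsaturated fatty acids (-0.81, SE 0.24, adjusted p = 0.040). Elovl1 (0.07), Elovl5 (0.48), Elovl7 (0.37) and Elovl6 (-0.12) did not pass, and the median of the 5 was 0.07. The low Elovl3 level in HFD livers was therefore not accompanied by a called fall of the family beyond Elovl2. None was called in the other comparisons.

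Cspg5 was a rare transcript. Counts were 24, 7 and 26 in HFD+RE, 8, 4 and 4 in HFD+AE, 4, 6 and 24 in HFD, and 138, 142 and 135 in NC. These correspond to 0.454, 0.127 and 0.433 CPM in HFD+RE, 0.125, 0.071 and 0.082 CPM in HFD+AE, 0.078, 0.133 and 0.343 CPM in HFD, and 2.57, 3.09 and 1.77 CPM in NC. All 3 NC libraries lay far above all 9 high-fat libraries, and HFD 3 lay apart from the other HFD libraries. Cspg5 fell against NC in each of them, with a log2 change of -2.86 (SE 0.54, adjusted p = 0.015) in HFD+RE, -4.69 (SE 0.61, adjusted p = 0.0044) in HFD+AE and -3.67 (SE 0.57, adjusted p = 0.0038) in HFD. The call in HFD+RE was lost without HFD+RE 4 (adjusted p = 0.055) or NC 4 (0.062). The mean was 0.338 ± 0.183 CPM (13.6% of NC) in HFD+RE, 0.0926 ± 0.0283 CPM (3.74%) in HFD+AE, 0.185 ± 0.140 CPM (7.46%) in HFD and 2.48 ± 0.662 CPM in NC.

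Between the exercise groups, all 3 HFD+RE libraries had more Cspg5 than all 3 HFD+AE libraries, by a log2 difference of 1.83 (SE 0.61, unadjusted p = 0.010, adjusted p = 0.61). With 57 counts in HFD+RE and 16 in HFD+AE over 3 libraries each, that difference did not pass. Cspg5 against HFD was 0.81 (adjusted p = 0.70) in HFD+RE and -1.02 (adjusted p = 0.32) in HFD+AE, and both groups overlapped HFD. The span of Cspg5 overlaps Gm43622 on the other strand outside its exons.

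Moxd1 reads came almost entirely from a single library. Counts were 32, 0 and 4 in HFD+RE, 6, 0 and 0 in HFD+AE, 0, 0 and 0 in HFD, and 309, 10 and 2 in NC. NC 2 held 85.1% of the 363 reads of the 12 libraries, and its 5.74 CPM stood beside 0.218 and 0.026 CPM in NC 4 and NC 5. HFD+RE 3 came second with 0.605 CPM. With 3 counts over the group as a floor for HFD, Moxd1 was at least 111-fold lower in HFD than the NC mean of 2.00 ± 3.25 CPM, and at least 6.76-fold lower without NC 2. It was called in HFD vs NC (adjusted p = 0.042), but that call held in 6 of 18 alternatives and ended when NC 2, NC 4, any HFD library, any HFD+AE library or HFD+RE 3 was left out. Against NC it was not called in HFD+AE (adjusted p = 0.20) or in HFD+RE (adjusted p = 0.24), and the log2 change in HFD+RE vs NC turned to 0.95 without NC 2.

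Hao2 oxidises medium and long hydroxy acids in peroxisomes. It measured 0.473, 1.85 and 0.433 CPM in HFD+RE, 0.841, 3.93 and 4.49 CPM in HFD+AE, 5.76, 5.62 and 3.25 CPM in HFD, and 0.149, 0.196 and 0.210 CPM in NC. Every high-fat library lay above every NC library, and every HFD+RE library lay below every HFD library. HFD+AE 1 lay with the HFD+RE libraries, and HFD+AE 2 and 3 with HFD. Group means were 0.919 ± 0.809, 3.09 ± 1.97, 4.88 ± 1.41 and 0.185 ± 0.0322 CPM in HFD+RE, HFD+AE, HFD and NC (SD, n = 3 each), which is 4.97-fold (HFD+RE), 16.7-fold (HFD+AE) and 26.4-fold (HFD) the NC mean.

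Hao2 rose against NC in HFD+AE (log2 change 4.03, SE 0.71, adjusted p = 0.018) and in HFD (4.69, SE 0.72, adjusted p = 0.0037). In HFD+RE the difference from NC was 2.29 (SE 0.70, adjusted p = 0.078) and did not pass. It passed in 4 of 19 alternatives, among them without HFD+RE 3 (2.60, adjusted p = 0.026), without HFD+AE 1 (adjusted p = 0.045) and in DESeq2 (adjusted p = 0.0067). Without HFD+RE 4, the highest HFD+RE library, it was 1.27 (adjusted p = 0.36). The HFD+AE call held in 14 of 19 alternatives and was lost without HFD+AE 2 (adjusted p = 0.063), HFD+AE 3 (0.051), NC 2 (0.063) or NC 4 (0.085). The difference between HFD+RE and HFD itself was -2.40 (SE 0.62, unadjusted p = 0.0018, adjusted p = 0.28) in edgeR and -2.41 (adjusted p = 0.011) in DESeq2. HFD+AE differed from HFD by -0.66 (SE 0.58, adjusted p = 0.49), and HFD+RE from HFD+AE by -1.74 (SE 0.61, adjusted p = 0.61). Counts ran from 54 in HFD+AE 1 to 222 in HFD+AE 2, so the HFD+AE libraries were split.

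Hao1, the relative that oxidises glycolate, stood lower in HFD than in NC but did not pass. It measured 255, 214 and 217 CPM in HFD+RE, 286, 272 and 212 CPM in HFD+AE, 187, 262 and 129 CPM in HFD, and 280, 315 and 365 CPM in NC, with a log2 difference of -0.73 (SE 0.24, adjusted p = 0.056) in HFD vs NC. The HFD and NC libraries of Hao1 did not overlap, and the direction of the difference was opposite to that of Hao2.

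Cyp2u1 differed from the other 5 genes in where it stood out. It measured 66.5, 60.3 and 84.3 CPM in HFD+RE, 38.9, 34.2 and 53.1 CPM in HFD+AE, 47.0, 48.9 and 50.5 CPM in HFD, and 33.6, 47.9 and 31.6 CPM in NC. The 3 HFD+RE libraries were the highest of the 12, and the other groups overlapped each other. Cyp2u1 averaged 70.4 ± 12.4 CPM in HFD+RE, 42.1 ± 9.87 CPM in HFD+AE, 48.8 ± 1.75 CPM in HFD and 37.7 ± 8.85 CPM in NC (SD, n = 3 each).

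Cyp2u1 rose in HFD+RE against NC by a log2 change of 0.90 (SE 0.21, adjusted p = 0.037), a call that held in 11 of 19 alternatives and was lost without any 1 of HFD+RE 4, HFD+RE 5, HFD 1, HFD 3, NC 2 or NC 5. The difference was 0.53 (SE 0.21, unadjusted p = 0.027, adjusted p = 0.49) in HFD+RE vs HFD and 0.74 (SE 0.21, unadjusted p = 0.0040, adjusted p = 0.61) in HFD+RE vs HFD+AE. Without HFD+AE 3 and HFD+RE 3, the libraries that stood apart, the last difference was 0.98 (adjusted p = 0.0096). The number of all genes called in that comparison also moved widely between such settings, with ranges given at the end. The call gained there is therefore not read as particular to Cyp2u1. In HFD and HFD+AE against NC the differences were 0.37 (SE 0.21, adjusted p = 0.23) and 0.16 (SE 0.21, adjusted p = 0.81). Relative to summed hepatocyte markers, Cyp2u1 stood at 230%, 124% and 230% of the NC mean in HFD+RE, HFD+AE and HFD. On that scale HFD stood as high as HFD+RE. The sum was mostly Alb, which fell in HFD against NC, and in CPM every HFD library lay below every HFD+RE library.

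Cyp2u1 was also the member most open to shared reads. Of its 4378-base longest transcript, 19.9% matched another gene at 95% identity or more over at least 100 bases, the longest such stretch (549 bases) being the overlapping gene 4930534D22Rik on the other strand. That gene had 0 to 17 counts per library. Cspg5 had such matches over 1.91% of its 7868-base longest transcript, and C6, Elovl3, Moxd1 and Hao2 had none. Its relatives Cyp2r1, a vitamin D 25-hydroxylase, and Cyp2s1 gave differences of -1.19 (SE 0.22, adjusted p = 0.0074) and 1.05 (SE 0.83, adjusted p = 0.38) in HFD vs NC, so Cyp2r1 fell.

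Levels between genes were compared per kilobase of exon (CPM per kb). In HFD+RE the order was C6 (44.9 ± 16.9), Elovl3 (18.6 ± 1.99), Cyp2u1 (13.4 ± 2.37), Hao2 (0.449 ± 0.395), Moxd1 (0.0700 ± 0.104) and Cspg5 (0.0335 ± 0.0181). In HFD the order was Elovl3 (20.1 ± 5.27), C6 (17.7 ± 6.08), Cyp2u1 (9.31 ± 0.334), Hao2 (2.38 ± 0.690), Cspg5 (0.0183 ± 0.0139) and Moxd1 (0). In NC it was Elovl3 (146.5 ± 88.9), C6 (107.8 ± 15.9), Cyp2u1 (7.20 ± 1.69), Moxd1 (0.624 ± 1.02), Cspg5 (0.246 ± 0.0657) and Hao2 (0.0903 ± 0.0157). HFD+AE had the same order as HFD+RE, with C6 at 33.4 ± 11.3 and Hao2 at 1.51 ± 0.959 CPM per kb. Elovl3 and C6 did not differ beyond their spread in HFD or NC, nor did Moxd1 and Cspg5 in HFD+RE or NC, whereas Hao2 stood in the fourth place in all 3 high-fat groups and at the bottom of the order in NC.

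Orders of the groups differed between the genes as well. C6 ran NC, HFD+RE, HFD+AE, HFD from high to low, and among the neighbours in that order only NC and HFD+RE passed the test. Elovl3 ran NC, HFD+AE, HFD, HFD+RE and Cspg5 ran NC, HFD+RE, HFD, HFD+AE, in both of which only the step next to NC passed. Hao2 ran HFD, HFD+AE, HFD+RE, NC, and no neighbouring step passed. Cyp2u1 ran HFD+RE, HFD, HFD+AE, NC, and Moxd1 ran NC, HFD+RE, HFD+AE, HFD, and again no neighbouring step passed.

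Most of 9 other listed male-biased genes of low copy number fell in HFD. Their list was written with earlier results of these data known, so it is not independent support for the 6 genes. Against NC, 6 fell, 0 rose and 3 did not pass, beside 7.19% of all genes lower, with a median log2 change of -2.22 beside 0.01 over all genes. Slco1a1, a bile salt and steroid transporter (-4.28, SE 0.70, adjusted p = 0.0045), and Egfr, a growth factor receptor (-3.01, SE 0.50, adjusted p = 0.0049), fell most. Cyp7b1, an oxysterol hydroxylase (-2.77, SE 0.36, adjusted p = 0.0016), and Susd4, a complement regulator (-1.59, SE 0.27, adjusted p = 0.0051), fell as well. C8b and Nudt7 (-1.10) also fell, and C8a, Dnaic1 (-2.42) and Rarres1 (0.18) did not pass. C8a and C8b stand in the complement list as well.

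Slco1a1 measured 399, 87.1 and 274 CPM in HFD+RE, 515, 342 and 87.8 CPM in HFD+AE, 19.8, 54.5 and 17.7 CPM in HFD, and 546, 723 and 521 CPM in NC. HFD+RE 4 and HFD+AE 3 were low among the exercised libraries, and every exercised library lay above every HFD library. Its log2 differences from HFD were 3.05 (SE 0.66, adjusted p = 0.24) in HFD+RE and 3.36 (SE 0.67, adjusted p = 0.057) in HFD+AE, which did not pass. Of the 9, only Cyp7b1 fell in HFD+RE against NC (-1.67, SE 0.35, adjusted p = 0.022) and only Nudt7 in HFD+AE against NC (-1.18, SE 0.22, adjusted p = 0.023), with medians of -0.99 and -0.96. C6, Elovl3 and Cspg5 were called against NC in both exercise groups, C6 narrowly in HFD+RE. The contrast between these genes and the 9 was not tested, and a gene that did not pass could still stand low. Cyp7b1, not called in HFD+AE, measured 146, 81.6 and 89.1 CPM there, below its NC libraries (252, 361 and 222 CPM).

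**Figure D4:**
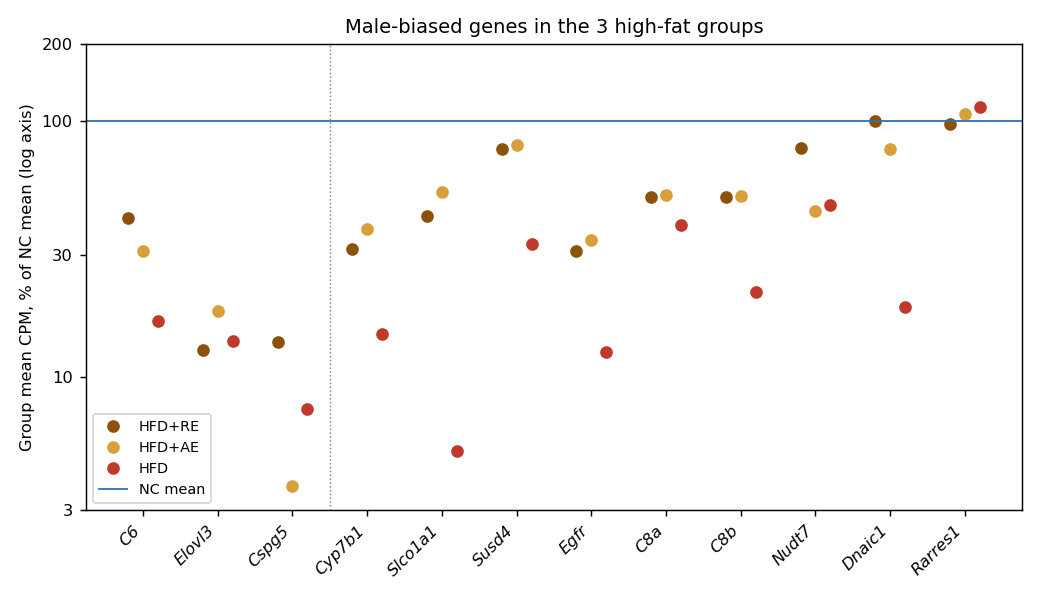
Group mean CPM as a percentage of the NC mean (vertical axis, log scale) in HFD+RE, HFD+AE and HFD for C6, Elovl3 and Cspg5 (left of the dotted line) and the 9 other male-biased genes (right), 1 point per group. C6 and Slco1a1 stand higher in both exercise groups than in HFD (41.6% and 31.0% against 16.5% for C6), while Elovl3 stands between 12.7% and 18.0% in all 3.

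Of 11 female-biased genes other than Hao2, listed with earlier results of these data known, 10 could be tested. In HFD against NC 3 rose, 0 fell and 7 did not pass, beside 8.38% of all genes higher and 7.19% lower, with a median of 1.05. Atp6v0d2, a proton pump subunit, rose by 1.71 (SE 0.41, adjusted p = 0.021), Cd36, a fatty acid transporter, by 1.43 (SE 0.40, adjusted p = 0.032) and Sult3a1, a sulfotransferase, by 3.25 (SE 0.84, adjusted p = 0.026). Ntrk2 did not pass (1.85, adjusted p = 0.059).

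Like Hao2, Sult3a1 had its highest group mean in HFD, but its HFD+RE libraries overlapped NC and its HFD+AE libraries lay below HFD. It measured 0, 0.0363 and 0.0333 CPM in HFD+RE, 0.0935, 0.213 and 0.124 CPM in HFD+AE, 0.311, 0.267 and 0.3004 CPM in HFD, and 0.0744, 0 and 0.0131 CPM in NC, which is at most 21 counts in any library. The HFD+RE libraries lay below all HFD and HFD+AE libraries, but the log2 difference of -3.51 (SE 0.87, adjusted p = 0.28) in HFD+RE vs HFD did not pass. Against NC, Atp6v0d2 rose in HFD+RE (1.93, SE 0.41, adjusted p = 0.025) and HFD+AE (2.60, SE 0.42, adjusted p = 0.012). So did Cyp17a1, a steroid hydroxylase, named here after its values were seen (2.59 in HFD+RE, adjusted p = 0.0051, and 2.18 in HFD+AE, adjusted p = 0.014). These were the 2 of 10 called in each exercise group, beside 2.67% of all genes higher in HFD+RE and 0.901% in HFD+AE.

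Of 12 genes of growth hormone receptor signalling and its direct outputs, 2 fell and 0 rose in HFD against NC, a share close to the 15.6% called over all genes, and the median was -0.39. Socs2, a feedback inhibitor induced by STAT5, fell (-2.40, SE 0.62, adjusted p = 0.026), as did Ptpn11, a phosphatase of the receptor pathway (-0.64, SE 0.17, adjusted p = 0.030). Socs2 measured 3.38, 12.2 and 8.05 CPM in HFD+RE, 23.8, 3.95 and 11.2 CPM in HFD+AE, 5.78, 6.62 and 8.27 CPM in HFD, and 20.02, 23.3 and 65.8 CPM in NC. The HFD libraries lay below the NC libraries, and HFD+AE 1 reached the NC range.

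The receptor Ghr (-0.33, SE 0.22, adjusted p = 0.29), the transcription factor Stat5b (-0.48, SE 0.27, adjusted p = 0.22), the hormone output Igf1 (-0.06, SE 0.28, adjusted p = 0.90) and the feedback inhibitor Cish (-2.15, SE 0.70, adjusted p = 0.053) did not pass in HFD vs NC. Igf1 averaged 754 ± 135 CPM in HFD+RE, 697 ± 202 CPM in HFD+AE, 619 ± 114 CPM in HFD and 645 ± 220 CPM in NC. None of the 12 was called in the 3 comparisons among high-fat groups or in HFD+AE or HFD+RE against NC. Transcript levels do not report the activity of STAT5b, which is set by phosphorylation.

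Among 16 transcription factors tied to sex-biased liver expression, 1 rose and 5 fell in HFD against NC, beside 8.38% and 7.19% of all genes, with a median of -0.23. Onecut1, which encodes HNF6, fell (-3.14, SE 0.76, adjusted p = 0.021). It measured 9.91, 3.63 and 7.52 CPM in HFD+RE, 23.3, 6.11 and 4.22 CPM in HFD+AE, 2.80, 7.09 and 2.37 CPM in HFD, and 22.6, 12.9 and 72.2 CPM in NC, so the NC libraries spread widely. Foxa1 (-1.22, adjusted p = 0.018), Hnf4a (-0.84, adjusted p = 0.016) and Foxa3 were also among those that fell, and Nr1i3, the nuclear receptor CAR, rose (0.73, SE 0.17, adjusted p = 0.018). The repressor Bcl6 (-0.83, SE 0.57, adjusted p = 0.31) and the female-enriched Cux2 (-0.29, SE 0.59, adjusted p = 0.75) did not pass. Bcl6 overlapped between HFD and NC, at 16.8, 16.0 and 38.6 CPM in HFD and 49.97, 63.9 and 13.6 CPM in NC.

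The genes whose profiles over the 12 libraries were most like those of C6, Elovl3, Cspg5, Hao2 and Moxd1 were found among 10498 genes, by the root mean square difference of log2 CPM after centring each gene. For C6 the nearest was Cyp7b1 (0.32 log2 units, against a spread of 1.02 for C6 itself), followed by Itih5 (0.41). For Elovl3 they were Hyou1 (0.54) and Slc30a10 (0.55), and for Cspg5 they were Elovl3 (0.96) and Cyp3a11 (0.99). Hao2 was nearest to Slc22a27 (0.63) and Sema5b (0.75), and Moxd1 to Selenbp2 (1.33) and Cdh1 (1.43). Among the 6 members, C6 and Elovl3 were closest to each other (0.75), and Moxd1 and Hao2 farthest apart (3.78). Cyp3a11, Slc22a27 and Selenbp2 belong to families with near copies, so their single values are uncertain.

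Some marker genes of other liver cells also differed between HFD and NC, where 8.38% of all genes were called higher and 7.19% lower. Of 7 lymphocyte markers 4 rose in HFD against NC, and their summed level was 3.12 to 5.11 CPM in HFD+RE, 1.84 to 4.55 CPM in HFD+AE, 4.71 to 26.1 CPM in HFD and 1.82 to 6.19 CPM in NC. HFD 2 (4.71 CPM) lay within the NC range, while HFD 1 and HFD 3 held 13.3 and 26.1 CPM. Of 6 stellate cell markers 3 rose, summing to 203 to 296 CPM in HFD+RE, 228 to 238 CPM in HFD+AE, 237 to 317 CPM in HFD and 126 to 145 CPM in NC. Of 7 hepatocyte markers 4 fell in HFD against NC. Of 3 red blood cell markers Alas2, an enzyme of heme synthesis, fell (-0.95), while the globins Hba-a1 (1.51, adjusted p = 0.11) and Hbb-bs (1.63, adjusted p = 0.060) stood higher in HFD and did not pass. The 3 summed to 127 to 301 CPM in HFD+RE, 115 to 265 CPM in HFD+AE, 232 to 400 CPM in HFD and 147 to 223 CPM in NC. Of the rest 1 of 5 endothelial markers fell, and 0 of 6 Kupffer cell, 0 of 4 cholangiocyte and 0 of 2 neutrophil markers were called by edgeR. Endothelial markers summed to 66.9 to 103.7 CPM in HFD and 144 to 176 CPM in NC, with a median log2 change of -0.97. Kupffer cell markers summed to 67.01 to 183 CPM in HFD and 166 to 274 CPM in NC, which overlapped, with a median of -1.13. The cholangiocyte sum was narrowly lower, and the neutrophil sum (3 genes) higher, in every HFD library than in any NC library. The part of these shifts in the levels of the 6 genes was not tested.

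Divided by the summed hepatocyte markers, the direction against NC was kept by the 6 genes in all 3 high-fat groups. Elovl3 stood at 15.6%, 19.9% and 24.1% of the NC mean in HFD+RE, HFD+AE and HFD, and Cspg5 at 16.7%, 4.12% and 14.2%. Hao2 stood at 593%, 1869% and 4536%. The order of the high-fat groups for Elovl3 therefore turned on this scale, which rests mostly on Alb, with HFD highest.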

How the data were processed

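Total RNA of liver was sequenced. Per gene, the authors deposited raw counts of reads (whole numbers, not normalized) in a single table. The file headers name featureCounts 2.0.6 as the counter. HISAT2 2.2.1, fastp, DESeq2 1.40.1 and mm10 are named by the submitters' processing notes. How reads with several matches were treated, the strand option and the annotation version were not given in the sources used here. A gene's count sums over its exons, so isoforms are not told apart.

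The test was edgeR 4.0.16 (R 4.3.3), quasi-likelihood F with robust dispersion, TMM scaling and the default low-count filter by group, which kept 18305 of 55291 genes. A fit of the 12 libraries gave each group its mean and all groups a shared spread. P-values were adjusted by Benjamini-Hochberg over the genes tested, and a gene was called at an adjusted p below 0.05. CPM are counts scaled to the TMM-adjusted library size, given as mean ± SD. SE is the one implied by the F-test. A group at 0 was set to 3 counts over the group as a lower bound, which covers counting error only. DESeq2 1.42.0 was an alternative. No pair of libraries agreed within sampling noise (the closest, HFD 1 and HFD 3, gave a chi-square of 70.8 per degree of freedom over 15260 genes).

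The genes named were the 6 members, up to 4 genes of each of 18 lists with the smallest p in HFD vs NC, 8 preset genes and, for each member, the 2 nearest profiles among genes with a mean log2 CPM above 1 (prior count 2). Some results under this rule are not reported here. Genes outside it were named after their values were seen. The members and lists were chosen with earlier results of these data known. The hepatocyte marker Tf was not matched by symbol in the table and was not used. Sequence matches between transcripts came from blastn 2.17.0 on GENCODE M21 transcripts.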

Additional observations from a re-analysis of the deposited data

How the results depend on the processing

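The calls of C6, Elovl3, Cspg5 and Hao2 in HFD vs NC held in all 19 alternatives run, with log2 changes from -3.02 to -2.46, -3.24 to -2.33, -4.53 to -3.32 and 4.46 to 5.54. Among these alternatives was a fit with each library's trend on gene length removed. The number of the 6 genes called in HFD vs NC ran from 4 to 5 when 1 library was left out. In HFD+AE vs NC (4 called) it ran from 1 to 4, in HFD+RE vs NC (4 called) from 1 to 5, and in HFD+AE vs HFD (0 called) from 0 to 1. Fitting only the 2 groups gave 2 in HFD+RE vs NC, and DESeq2 gave 2 in HFD+RE vs HFD. Without HFD+AE 3 and HFD+RE 3, 1 was called in HFD+AE vs HFD and 1 in HFD+RE vs HFD+AE. Counts of all genes called also moved widely between settings, as given below. A call gained in such a setting is therefore not read as a result about the gene.

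Some differences that were not called changed sign. Elovl3 in HFD+RE vs HFD gave -0.31 to 0.052 with 1 library left out, Cyp2u1 in HFD+AE vs NC -0.051 to 0.37, Moxd1 in HFD+RE vs NC -5.76 to 0.95 and Moxd1 in HFD+RE vs HFD+AE -0.0056 to 6.64. Without both libraries that stood apart, HFD+RE vs HFD+AE gave -0.022 for C6 and -0.48 for Moxd1, and HFD+AE vs NC gave -0.041 for Cyp2u1. The cause was not tested.

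The 9 pairs of same-numbered libraries in different groups deviated from their group means with correlations of -0.50 to 0.16 (2 above 0.1), and the 45 other pairs with -0.38 to 0.51, so the numbers were not taken to pair the samples. With the number as a replicate block, 5 of the 6 genes were called in HFD vs NC and 0 in every other comparison, among them HFD+AE vs NC and HFD+RE vs NC, and 325 genes of the table were called in HFD vs NC, 1 in HFD+AE vs NC and 15 in HFD+RE vs NC.

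Counts over the whole table moved widely. Leaving out 1 library gave 411 to 4462 genes in HFD vs NC (2851), 0 to 1930 in HFD+AE vs HFD (9), 2 to 53 in HFD+RE vs HFD (2), 0 to 2 in HFD+RE vs HFD+AE (0), 44 to 373 in HFD+AE vs NC (253) and 112 to 3983 in HFD+RE vs NC (724). Over the other settings the ranges were 325 to 6258, 2 to 4253, 1 to 186, 0 to 4170, 1 to 792 and 15 to 5989. Moxd1 in fits of 2 groups, and Cspg5 in HFD+AE vs HFD and HFD+RE vs HFD+AE so fitted, did not pass the filter. Depth limits Cspg5, Moxd1 and Hao2, which had under 350 counts in every library.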
